A study of Homo sapiens with 6 samples.

Results

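The genes described here are 10 regulators and markers of the switch between epithelial and mesenchymal cell states: CDH1, ESRP1, ESRP2, OVOL1, GRHL2, ZEB1, ZEB2, SNAI1, SNAI2 and VIM. They were chosen by name, with earlier results of these data known. Each was followed through the probe sets that the platform annotation assigns to that symbol alone. All 10 were found among the 18132 measured genes, with 26 of the 49395 probe sets. Epithelial cells hold together through E-cadherin junctions, and mesenchymal cells lose these junctions and fill their cytoskeleton with vimentin. The zinc finger repressors of the ZEB and SNAI families silence CDH1 and other epithelial genes, while OVOL1, GRHL2 and the splicing factors ESRP1 and ESRP2 belong to the epithelial program. ZEB1 and the epithelial factors are known to repress each other, so the program can settle in either state or in between.

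RNA came from a human line labelled TPC-1, derived from papillary thyroid carcinoma and grown in RPMI1640 with fetal bovine serum. One group of 3 arrays is labelled as infected with lentivirus carrying an shRNA against FAM60A, and the other group of 3 as infected with lentivirus carrying a control shRNA, with 1 Affymetrix array per sample. The targeted gene is now called SINHCAF, and its protein belongs to the SIN3-HDAC co-repressor complex. The design calls the samples independent but names no separate cultures, and the spread behind each p-value may therefore be technical. No infection time, shRNA sequence or second shRNA is given in the sources used here. Values are taken as log2 expression relative to the median of the 6 arrays for each probe set. They therefore show differences between arrays and, through their rounding step, a coarse level class of 2 to 4, 4 to 8 or 8 or more on the original log2 scale. The class of 2 to 4 held 16 of 17 control tags without a target.

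The targeted gene did not follow its label. SINHCAF stood at 0.63, 0.57 and 0.60 in the arrays labelled FAM60A shRNA, against -0.58, -0.66 and -0.68 in the arrays labelled control shRNA. Its log2 difference was 1.24 ± 0.038 (SE, n = 3 per group), a 2.36-fold higher signal (limma, adjusted p = 1.082e-06). The groups did not overlap, and p was 0.1 in a two-sided exact permutation test, its lowest possible value with 3 arrays per label. Every direction below is therefore that of the arrays labelled FAM60A shRNA relative to the arrays labelled control shRNA, and not that of a measured loss of SINHCAF. The RNA extraction protocol names DLD1, a colorectal line, where all titles name TPC-1. Of 9 measured thyroid markers, 1 had a probe set in the class of 8 or more, and 2 had all of theirs in the class of 2 to 4. Thyroglobulin TG had a log2 difference of -0.13 (adjusted p = 0.097) and the thyroid factor PAX8 one of -0.077 (adjusted p = 0.20), although 1 of the 4 PAX8 probe sets fell, and no probe set of either lay in that class. HHEX (-0.97) and GLIS3 (-0.18, with 2 of 5 probe sets lower) fell. Of 11 intestinal markers, 3 had a probe set in the class of 8 or more (CDX2, KRT20 and CDH17), and 5 had all of theirs in the class of 2 to 4 (VIL1, LGALS4, FABP1, MUC2 and PHGR1). Of the 11, 7 rose and 0 fell, where 19.8% of all genes rose and 25.0% fell. LGR5 (2.0), KRT20 (1.20), CDX2 (1.0) and CDH17 (0.82) rose, and so did LGALS4 (0.16), MUC2 (0.18) and PHGR1 (0.21), each from 1 probe set in the class of 2 to 4. All 11 had a difference above 0, and the markers in the lowest class were named after their values were seen. The part of the intestinal markers in the rise of the epithelial switch genes was not tested.

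In the arrays labelled FAM60A shRNA most epithelial switch genes were higher. ZEB1 was lower there, and SNAI1 went the way of the epithelial genes. VIM was lower by the gene mean with neither probe set past the test, and its call was lost in 8 of 16 alternative fits. Of the 10 genes, 5 rose (ESRP1, OVOL1, SNAI1, ESRP2 and CDH1), 2 fell (ZEB1 and VIM) and 3 did not pass the test (ZEB2, SNAI2 and GRHL2). Over all 18132 genes the same test called 44.9%, 19.8% higher and 25.0% lower, so that 7 of 10 stands beside a large background. The groups did not overlap for the same 7 genes, against 53.2% of all genes. The median log2 difference was 0.11 for the 10 genes and -0.012 for all genes, and the median size regardless of sign was 0.25 and 0.12. By size of difference, 2.28% of all genes moved more than ESRP1, 9.93% more than ZEB1 and 44.3% more than CDH1. Of the 26 probe sets, 13 passed (40.8% of all probe sets did), with 8 that rose (18.1%) and 5 that fell (22.7%). The difference was above 0 for 6 of the 10 genes (47.0% of all genes) and for 13 of the 26 probe sets (46.6% of all probe sets).

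**Figure D1:**
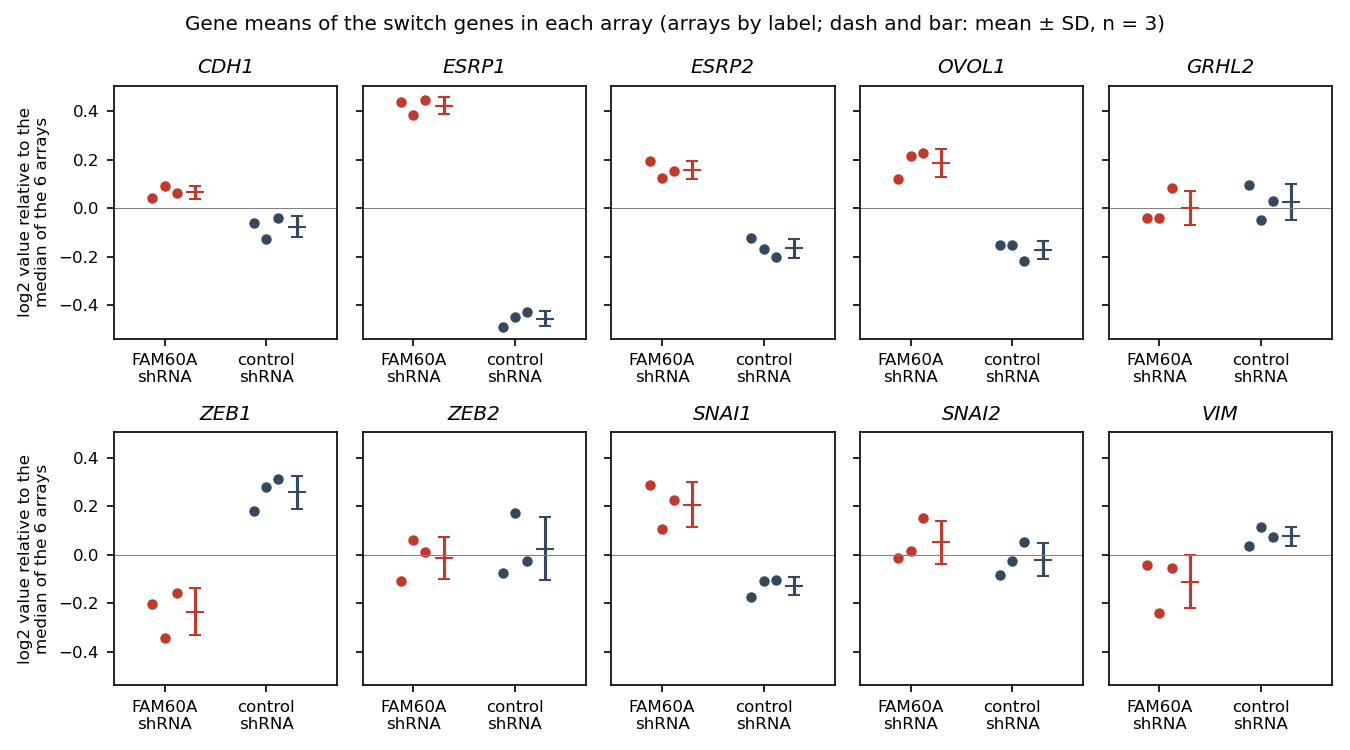
Each panel plots one gene, with the log2 value relative to the median of the 6 arrays on the vertical axis, the 3 arrays labelled FAM60A shRNA on the left and the 3 labelled control shRNA on the right, and a dash and bar for the mean and SD. ESRP1 shows the widest gap between the labels among the 10 genes (0.38 to 0.45 against -0.49 to -0.43), and the points of GRHL2, ZEB2 and SNAI2 overlap.

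ESRP1, an RNA-binding protein that keeps the epithelial exons of its target transcripts, had the largest difference of the 10. Its values were 0.44, 0.38 and 0.45 in the arrays labelled FAM60A shRNA, against -0.49, -0.45 and -0.43 in the arrays labelled control shRNA. The 3 arrays of each label lay close together, and the gap between the labels was many times the spread within them. The log2 difference was 0.88 ± 0.034 (SE, n = 3 per group), or 1.84-fold higher (95% confidence interval 1.74 to 1.94, adjusted p = 2.586e-06). Its probe sets 11723543_a_at (0.98, class of 8 or more) and 11723544_a_at (0.77, class of 4 to 8) both rose.

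ESRP2, the paralogue of ESRP1 with overlapping targets, rose less. It stood at 0.20, 0.12 and 0.15 in the arrays labelled FAM60A shRNA, against -0.12, -0.17 and -0.20 in the arrays labelled control shRNA. The groups did not overlap, and the log2 difference was 0.32 ± 0.036, a 1.25-fold higher signal (adjusted p = 0.000267). A single probe set in the class of 8 or more measured it.

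OVOL1, a zinc finger repressor that opposes ZEB1 in epithelial cells, rose by 0.36 ± 0.041 on the log2 scale, or 1.285-fold (adjusted p = 0.000276). Its values were 0.12, 0.21 and 0.23 in the arrays labelled FAM60A shRNA, against -0.15, -0.15 and -0.22 in the arrays labelled control shRNA. All 3 of its probe sets rose, but by unequal amounts. The log2 difference was 0.53 for 11725478_at in the class of 8 or more, 0.36 for 11725479_at and 0.19 for 11725477_at, the last pair in the class of 4 to 8. The call of 11725478_at held whichever array was left out. That of 11725477_at was lost without the second (0.17) or last (0.18) array labelled FAM60A shRNA and without the first (0.18) or second (0.19) labelled control shRNA. That of 11725479_at was lost without the last array labelled FAM60A shRNA (0.28) and without the second (0.36) or last (0.29) labelled control shRNA. The fit with a replicate block also left 11725479_at at 0.36 without a call (adjusted p = 0.064).

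CDH1, which encodes E-cadherin, the adhesion receptor of epithelial junctions, differed least among the genes that rose. Its values were 0.040, 0.093 and 0.064 in the arrays labelled FAM60A shRNA, against -0.062, -0.13 and -0.041 in the arrays labelled control shRNA. The groups did not overlap, but the difference of 0.14 ± 0.036 was a 1.10-fold higher signal (adjusted p = 0.0145). The probe set 11716905_a_at rose by 0.18 (adjusted p = 0.026), while 11716906_a_at, the one in the class of 8 or more, had 0.10 (adjusted p = 0.073). The call of 11716905_a_at was lost without the second (0.16) or last (0.17) array labelled FAM60A shRNA and without the first (0.18) or second (0.15) labelled control shRNA. That of 11716906_a_at was gained after quantile normalization again (0.12), after cyclic loess (0.13) and without the lowest level class (0.10). Without the second array labelled FAM60A shRNA the gene lost its call, with a log2 difference of 0.13 (adjusted p = 0.053).

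GRHL2, a grainyhead factor that activates CDH1 and other junction genes, showed no detectable difference at this number of arrays. It stood at -0.039, -0.040 and 0.082 in the arrays labelled FAM60A shRNA, against 0.096, -0.049 and 0.029 in the arrays labelled control shRNA. Both labels covered nearly the same range, and the log2 difference was -0.024 with a 95% confidence interval of -0.15 to 0.099 (adjusted p = 0.76). Its 5 probe sets ran from -0.12 to 0.087, 2 above and 3 below 0, and none passed. Calls appeared for 11731238_at (-0.16) without the second and for 11752934_a_at (-0.24) without the last array labelled control shRNA. Of the 5, 1 lay in the class of 8 or more and 4 in that of 4 to 8. GRHL2 thus had probe sets above the lowest class, unlike ZEB2 and SNAI2.

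ZEB1, a repressor that binds the E-box CACCTG in CDH1 and other epithelial genes, fell. Its values were -0.20, -0.34 and -0.16 in the arrays labelled FAM60A shRNA, against 0.18, 0.28 and 0.31 in the arrays labelled control shRNA. The groups did not overlap, and the log2 difference was -0.49 ± 0.059 (SE, n = 3 per group), or 1.41-fold lower (95% confidence interval 1.28 to 1.55, adjusted p = 0.0003614). In bulk RNA, fewer cells with a transcript and less of it per cell cannot be told apart.

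The E-box was looked for in the promoters of 3 of the 10 members (ZEB1, ZEB2 and VIM). Entries for ESRP1, GRHL2 and SNAI2 were left out of the search, and CDH1, SNAI1, ESRP2 and OVOL1 had none. The promoters of these remaining members were therefore not searched. The windows of ZEB1 that hold the E-box are printed because ZEB1 is both a factor that binds these letters and the member with the largest fall. The RefSeq table of GRCh38.p14 lists 7 windows of 300 bases for ZEB1, each from 250 bases before a start to 50 after it, and 2 of them hold a match. Window 1, at chr10:31318167-31318466 on the plus strand, holds CAGGTG with its first base 57 bases before the start. Window 3, at chr10:31318966-31319265 on the plus strand, holds matches that begin 242 and 85 bases before the start and at base 34 after it, with the start as base 1. Capitals mark the E-box, and sequences run 5′ to 3′.
ZEB1 window 1: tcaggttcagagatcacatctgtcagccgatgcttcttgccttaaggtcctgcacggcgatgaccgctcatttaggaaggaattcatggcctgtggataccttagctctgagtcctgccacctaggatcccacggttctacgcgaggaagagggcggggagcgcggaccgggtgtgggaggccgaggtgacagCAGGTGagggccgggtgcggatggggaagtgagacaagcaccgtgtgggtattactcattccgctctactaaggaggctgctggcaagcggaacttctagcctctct
ZEB1 window 3: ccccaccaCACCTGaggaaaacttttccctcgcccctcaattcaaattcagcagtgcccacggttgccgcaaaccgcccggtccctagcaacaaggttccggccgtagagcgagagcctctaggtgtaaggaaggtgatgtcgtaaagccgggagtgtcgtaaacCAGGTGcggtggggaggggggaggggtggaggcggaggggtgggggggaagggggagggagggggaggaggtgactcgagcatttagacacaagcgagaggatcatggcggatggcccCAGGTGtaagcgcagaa
VIM has 1 window, at chr10:17227991-17228290 on the plus strand, and ZEB2 has 1, and neither holds these letters. The search used CACCTG for one strand and its reverse complement CAGGTG for the other, and no other motif. Of all 35116 windows of this length, 20.6% hold a match, so the matches are a description and not a binding site.

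The 7 probe sets of ZEB1 agreed in sign and disagreed in size. The log2 difference was -1.01 for 11721545_x_at, or 2.01-fold lower (95% confidence interval 1.66 to 2.445), and -0.090 for 11749136_x_at, with an interval of -0.235 to 0.055 on the log2 scale. These intervals do not meet, which is a description only, since the pair was picked as the extremes of the 7. Between them 11734686_x_at (-0.75), 11721547_s_at (-0.68), 11721546_s_at (-0.39) and 11758473_s_at (-0.25) also fell, while 11749644_s_at (-0.28, adjusted p = 0.096) did not pass, except without the first array labelled control shRNA (-0.38). In all, 5 fell and 2 did not pass, and the same 5 had no overlap between the labels (over the 26 probe sets it was 15, against 50.4% of all probe sets). The range from smallest to largest difference was 0.92 on the log2 scale, wider than for OVOL1 (0.34), ZEB2 (0.22), GRHL2 (0.21) or ESRP1 (0.21).

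Single arrays show where the probe sets part. 11721545_x_at had -0.32, -0.68 and -0.43 in the arrays labelled FAM60A shRNA, against 0.32, 0.58 and 0.68 in the arrays labelled control shRNA. 11749136_x_at had -0.13, -0.096 and 0.046 in the arrays labelled FAM60A shRNA, against -0.046, 0.060 and 0.074 in the arrays labelled control shRNA. The first separates the labels by a wide gap, and the second overlaps between them. The class of 2 to 4, where control tags lie, held 5 of the 7, among them both that did not pass, and the remaining pair, 11721545_x_at and 11721547_s_at, lay in the class of 4 to 8. All 7 names end in x_at or s_at, which marks probes that can match more than 1 transcript. With the class of 2 to 4 left out, the log2 difference of ZEB1 was -0.84.

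**Figure D2:**
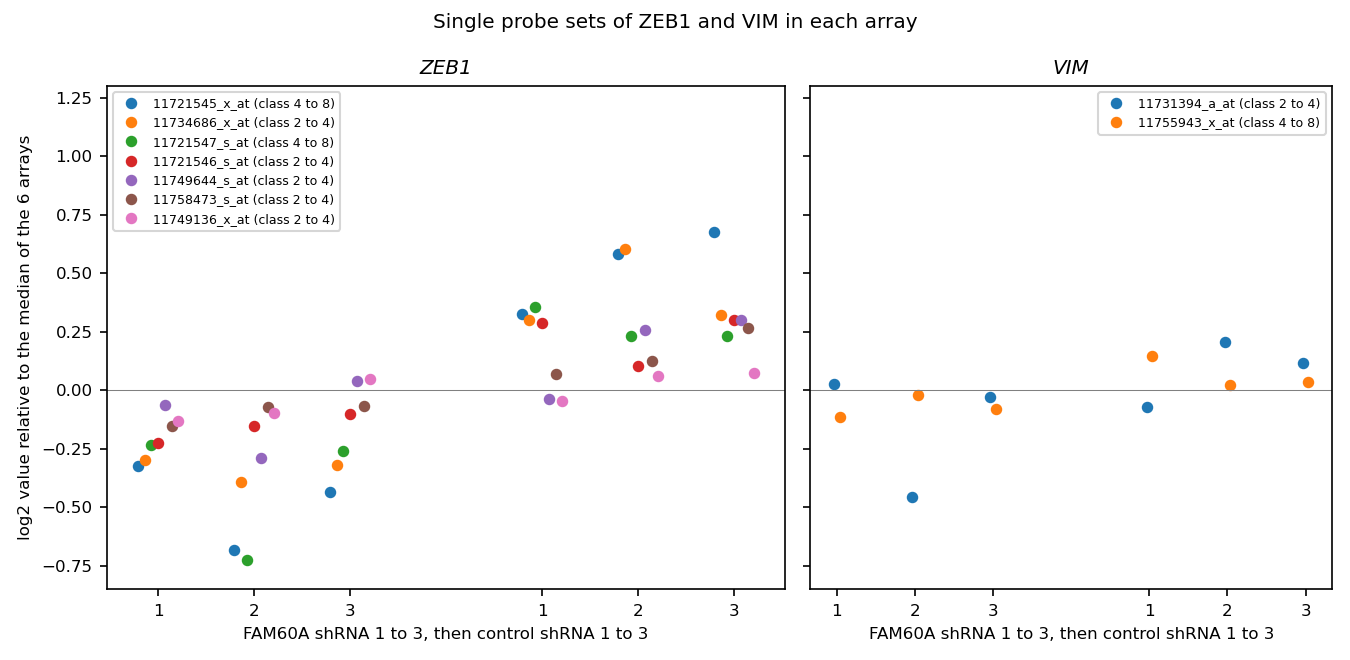
Points show the log2 value of each probe set relative to its median over the 6 arrays, for ZEB1 on the left and VIM on the right, with the arrays labelled FAM60A shRNA first and those labelled control shRNA after them in each panel. The ZEB1 probe sets 11721545_x_at and 11734686_x_at lie at -0.30 or below under the FAM60A shRNA label and at 0.30 or above under the control label, whereas 11749136_x_at stays between -0.13 and 0.074.

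ZEB2, the paralogue of ZEB1 and likewise a repressor of CDH1, did not pass. It stood at -0.11, 0.061 and 0.010 in the arrays labelled FAM60A shRNA, against -0.074, 0.17 and -0.026 in the arrays labelled control shRNA. The labels overlapped, with a log2 difference of -0.037 and a 95% confidence interval of -0.21 to 0.14 (adjusted p = 0.74). Its probe sets 11747942_a_at (-0.15) and 11756954_s_at (0.074) had opposite signs, and both lay in the class of 2 to 4. Since control tags without a target lie in the same class, these values put no bound on a loss of ZEB2 transcript.

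SNAI1, which encodes the repressor Snail, rose although it acts on the mesenchymal side. Its values were 0.29, 0.11 and 0.22 in the arrays labelled FAM60A shRNA, against -0.17, -0.11 and -0.11 in the arrays labelled control shRNA. All 3 arrays labelled FAM60A shRNA lay above all 3 labelled control shRNA, and they spread more widely. The log2 difference was 0.33 ± 0.052, a 1.26-fold higher signal (adjusted p = 0.001354), from 1 probe set in the class of 4 to 8.

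SNAI2, which encodes the related repressor Slug, did not pass. It stood at -0.013, 0.013 and 0.15 in the arrays labelled FAM60A shRNA, against -0.084, -0.028 and 0.051 in the arrays labelled control shRNA. The labels overlapped, with a log2 difference of 0.071 and a 95% confidence interval of -0.061 to 0.20 (adjusted p = 0.37). Its 1 probe set lay in the class of 2 to 4.

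VIM, which encodes the intermediate filament vimentin, fell slightly by the gene mean and by neither of its probe sets. The gene mean was -0.044, -0.24 and -0.054 in the arrays labelled FAM60A shRNA, against 0.037, 0.11 and 0.075 in the arrays labelled control shRNA. The groups did not overlap, the second array labelled FAM60A shRNA was the lowest, and the log2 difference was -0.19 ± 0.058, a 1.14-fold lower signal (adjusted p = 0.034). The call was lost in 8 of 16 alternatives. Among these were the fits that left out the first, second or last array labelled control shRNA, with -0.21, -0.17 and -0.19, and those after quantile normalization again (-0.18) and cyclic loess (-0.17). Leaving out the second array labelled FAM60A shRNA gave the smallest size, -0.12, and the call held (adjusted p = 0.049).

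The probe sets of VIM placed that low array differently. 11731394_a_at, in the class of 2 to 4, had 0.028, -0.46 and -0.028 in the arrays labelled FAM60A shRNA, against -0.074, 0.21 and 0.12 in the arrays labelled control shRNA. 11755943_x_at, in the class of 4 to 8, had -0.12, -0.021 and -0.079 in the arrays labelled FAM60A shRNA, against 0.15, 0.021 and 0.033 in the arrays labelled control shRNA. In the first probe set the low value sits in the second array labelled FAM60A shRNA and the labels overlap, whereas in the second probe set that array is the highest of its label and the labels do not overlap. The log2 differences were -0.23 (adjusted p = 0.23) and -0.14 (adjusted p = 0.068), 0.095 apart, which is less than the spread of the first probe set among the arrays labelled FAM60A shRNA (SD 0.265, n = 3). 11755943_x_at passed where the lowest level class was left out of the test (-0.14, adjusted p = 0.044). No probe set of VIM lay in the class of 8 or more.

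**Figure D3:**
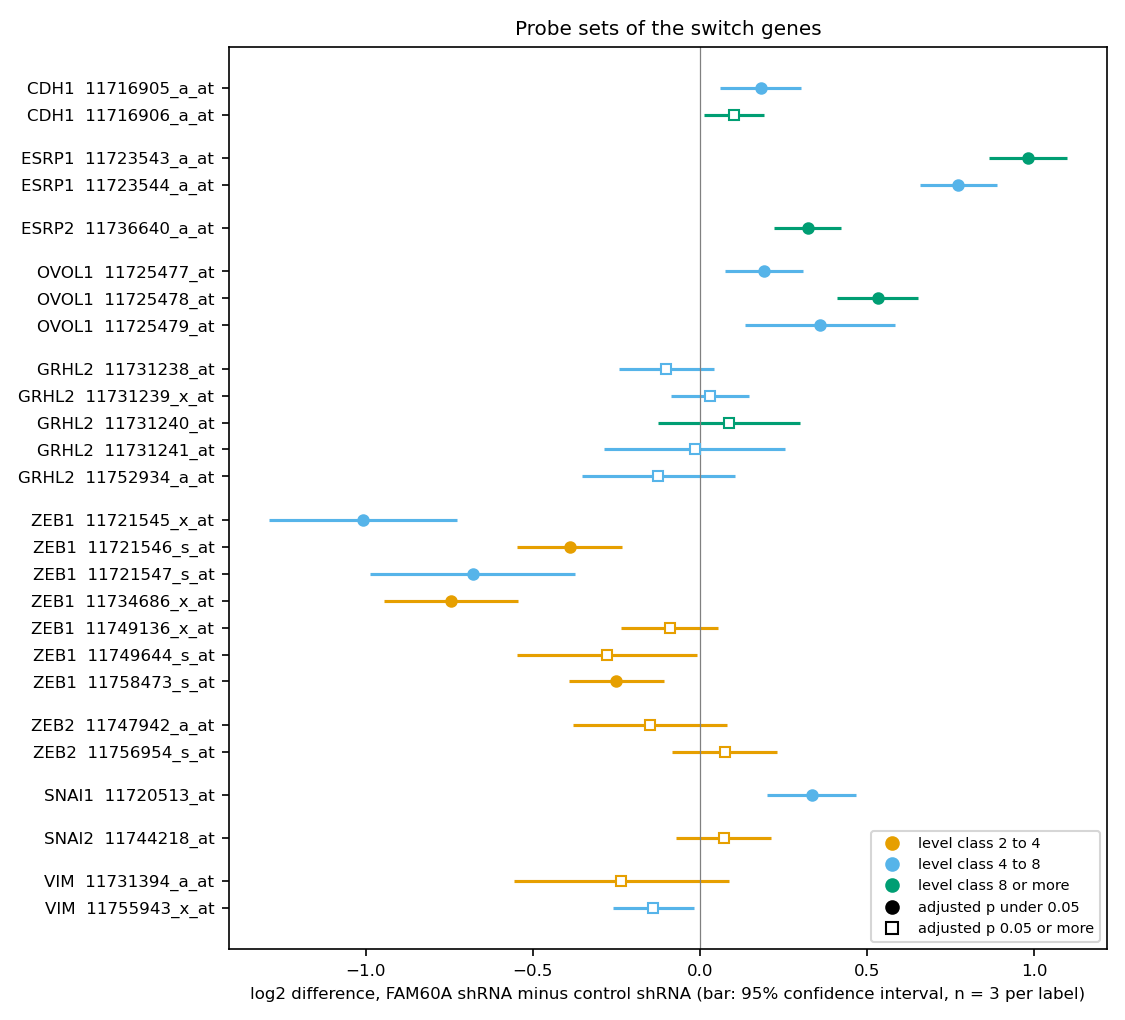
Each row is a probe set of the 10 genes, with its log2 difference (FAM60A shRNA label minus control shRNA label) and the 95% confidence interval of the limma fit on the horizontal axis, coloured by level class and filled where the adjusted p was under 0.05. All 7 ZEB1 intervals centre below 0 over a range from -1.01 to -0.090, while the 5 GRHL2 intervals all cross 0.

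Averaged within each array, the epithelial members separated the labels and the mesenchymal members did not. The mean of CDH1, ESRP1, ESRP2, OVOL1 and GRHL2 was 0.15, 0.15 and 0.19 in the arrays labelled FAM60A shRNA, against -0.15, -0.19 and -0.17 in the arrays labelled control shRNA. The mean of VIM, ZEB1, ZEB2, SNAI1 and SNAI2 was -0.017, -0.081 and 0.035 in the arrays labelled FAM60A shRNA, against -0.023, 0.086 and 0.061 in the arrays labelled control shRNA. The mesenchymal means overlapped between the labels, with SNAI1 and ZEB1 of opposite sign. They also include ZEB2 and SNAI2, with all probe sets in the class of 2 to 4, where no probe set of an epithelial member lay. Among the epithelial members ESRP1 (0.88) had the largest difference.

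Of 10 other measured factors that drive the mesenchymal state, 2 rose, 0 fell and 8 did not pass in the limma fit (3 in either direction at an unadjusted p under 0.05), with a median of 0.049. Rises in 2 of 10 are near the 19.8% of all genes, and 25.0% of all genes fell. In 4 of the 10, all probe sets lay in the class of 2 to 4. TCF4 rose by 1.03, with 9 of its 11 probe sets past the test and differences from 0.082 to 1.76, and TCF3, which encodes the E2A proteins, rose by 0.82. TWIST1, a driver of mesenchymal transition in development, had a log2 difference of 0.081 (adjusted p = 0.63), and its 1 probe set lay in the class of 2 to 4. Of 10 measured epithelial factors, 7 rose, 2 fell and 1 did not pass, with a median of 0.66, beside 19.8% and 25.0% of all genes and a median of -0.012.

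The relatives of OVOL1 and GRHL2 did not move alike. OVOL2, which like OVOL1 represses ZEB1, fell by 0.52 on the log2 scale, with both probe sets past the test. It stood at -0.19, -0.35 and -0.31 in the arrays labelled FAM60A shRNA, against 0.26, 0.19 and 0.25 in the arrays labelled control shRNA, so OVOL1 and OVOL2 separated the labels in opposite directions. GRHL3, an epidermal grainyhead factor, rose by 2.29, with values of 1.17, 1.18 and 1.05 in the arrays labelled FAM60A shRNA, against -1.05, -1.17 and -1.26 in the arrays labelled control shRNA. GRHL1 fell by 0.19, with 1 of its 3 probe sets past the test. The 3 grainyhead genes thus gave a rise, a fall and, for GRHL2, no call. ELF3 (2.32), an epithelial ETS factor, and KLF4 (0.89) also rose.

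Of 29 epithelial adhesion and polarity genes, many of them known to be repressed by ZEB1 or activated by GRHL2, 19 rose, 3 fell and 7 did not pass. Their median was 0.30, and of all genes 19.8% rose and 25.0% fell. These shares are not matched for level, since 26 of the 29 had a probe set in the class of 8 or more. In a fit of that class alone, 2314 of 7188 genes rose and 2834 fell. The tight junction claudin CLDN4 (1.41), the membrane protease PRSS8 (1.17) and the junction scaffold TJP3 (1.07) rose most. The polarity gene CRB3 (-0.28), the microtubule-binding MAP7 (-0.26) and occludin OCLN (-0.26) fell. EPCAM, the epithelial adhesion molecule, had a log2 difference of 0.061 (adjusted p = 0.43), with all 3 probe sets in the class of 8 or more. CDH1 at 0.14 thus lay below the median of this list.

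Of 23 mesenchymal marker genes, 4 rose, 2 fell and 17 did not pass, with a median of -0.0091. In 5 of the 23, all probe sets lay in the class of 2 to 4, where control tags without a target lie. The 4 rises are near the 19.8% of all genes, and the 2 falls are a smaller share than the 25.0% of all genes. S100A4, a calcium-binding protein of motile cells, rose by 0.97, with all 3 probe sets higher. The other rises rest on few probe sets. The matrix gene TNC (0.21) had 1 of 4 past the test, with differences from -0.24 to 0.85. Fibronectin FN1 (0.18) had 2 of 8, with 5 in the class of 2 to 4, and N-cadherin CDH2 (0.14) had 0 of 2. The receptor kinase AXL fell by 0.92 on the log2 scale, with both probe sets past the test at -1.60 and -0.23. Smooth muscle actin ACTA2 (-0.25) fell by the gene mean and in 1 of 3 probe sets, with differences from -0.82 to 0.15. Stromal cells and leukocytes carry VIM, ZEB1 and ZEB2, so their markers stand beside these genes. The samples are labelled as a cultured line and not as a tissue with such cells. Of 8 fibroblast and endothelial markers 0 rose and 0 fell in the limma fit (0 also at an unadjusted p under 0.05), beside 19.8% and 25.0% of all genes. Of the 5 probe sets of VWF, however, 1 rose and 1 fell, with differences from -0.32 to 0.26. Of the 8, 2 had all probe sets in the class of 2 to 4, and 0 had a probe set in the class of 8 or more. Their mean ran from -0.050 to 0.066 in the arrays labelled FAM60A shRNA and from -0.018 to 0.032 in the arrays labelled control shRNA, and the endothelial marker PECAM1 had a log2 difference of 0.031. Of 7 leukocyte markers 1 rose, CORO1A (0.60), and 0 fell, beside 19.8% and 25.0% of all genes (2 in either direction at an unadjusted p under 0.05). By single probe sets, 1 of 2 rose for CD14 and 1 of 2 fell for LYZ. In 3 of the 7, all probe sets lay in the class of 2 to 4. The pan-leukocyte marker PTPRC had -0.023, which was also the median of the 7. The mean of the leukocyte markers, CORO1A included, ran from 0.041 to 0.089 in the arrays labelled FAM60A shRNA. In the arrays labelled control shRNA it ran from -0.061 to -0.050. The part of these markers in the fall of VIM and ZEB1 was not tested.

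Of 10 measured genes whose exons ESRP1 and ESRP2 are known to regulate, 2 rose, 5 fell and 3 did not pass, with a median of -0.10. Rises in 2 of 10 are near the 19.8% of all genes, and 25.0% of all genes fell. The actin regulator ENAH rose by 1.20 and the hyaluronan receptor CD44 by 0.90. All 10 probe sets of CD44 rose, from 0.55 to 1.41, and all 4 of ENAH, from 0.66 to 1.64. The receptor FGFR2 had a log2 difference of 0.022 (adjusted p = 0.66), with 12 probe sets from -0.094 to 0.32 of which 1 rose. NUMB (-0.38), KIF1B (-0.26) and EXOC7 (-0.18) fell. The platform annotation does not tie these probe sets to single exons, so splice forms were not measured here.

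**Figure D4:**
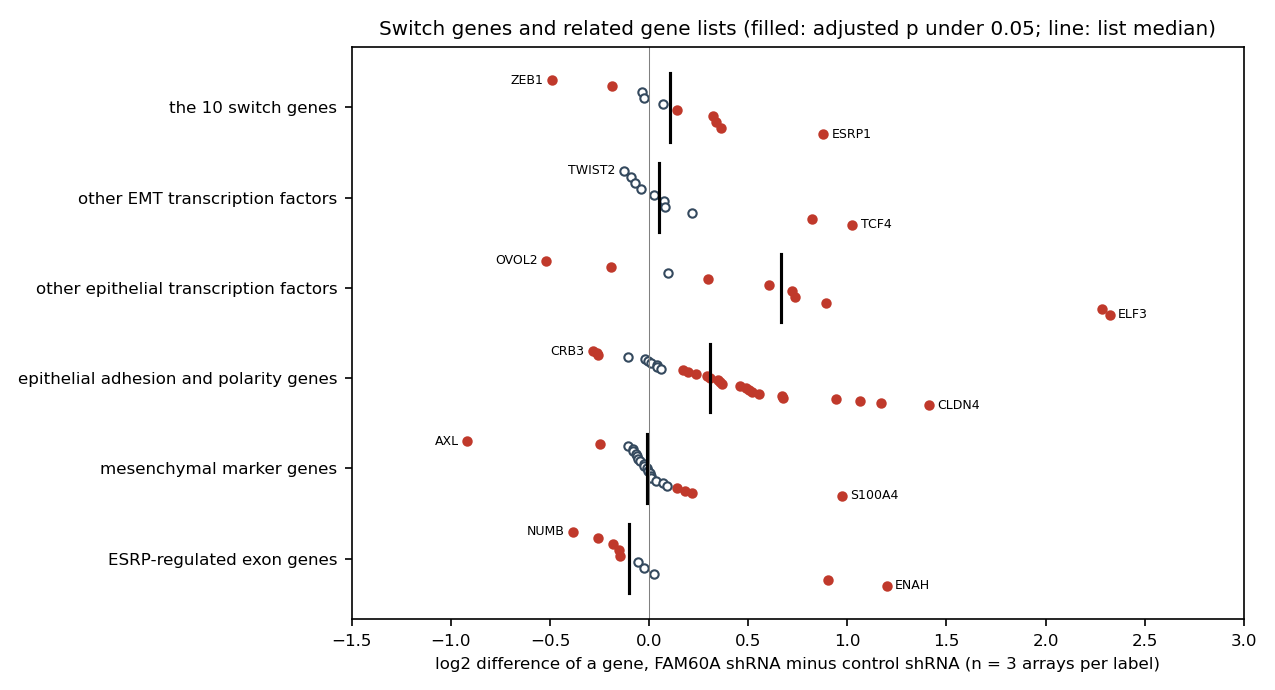
Points are genes and the horizontal axis is the log2 difference of the gene mean (FAM60A shRNA label minus control shRNA label, n = 3 per label), in rows for the 10 switch genes and 5 related lists, filled where the adjusted p was under 0.05, with a line at each list's median. The epithelial factors (median 0.66) and the adhesion and polarity genes (0.30) lie to the right of 0, and the mesenchymal markers centre on -0.0091.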

How the data were processed

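Each sample (3 per label) was hybridised to 1 Affymetrix array, and the sample titles gave the groups. The authors deposited log2 expression values, and the submitters' processing notes name RMA. Its program is not given in the sources used here. For each of the 49395 probe sets the median over the 6 arrays was 0 to within 5e-07, so the values are centred. The base of 2 was taken from RMA and is not stated with the values. No depth exists for arrays, and their number limits the precision.

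The platform annotation named the probe sets (44994 with 1 symbol, 1832 with several, 2569 with none), and RefSeq GRCh38.p14 changed 0 symbols. A gene is the mean of its probe sets. The 102 control probe sets were left out, and no filter on low values was applied, so all 10 members were tested. Genes and, separately, probe sets were fitted over the whole table with limma 3.58.1 in R 4.3.3 (lmFit, eBayes) and adjusted by Benjamini-Hochberg, and an adjusted p under 0.05 counted as past. A positive difference means a higher value under the FAM60A shRNA label. The fit was tested on simulated data. Level classes come from the single-precision rounding step shared by a probe set's values, and 97.0%, 96.5% and 100.0% of simulated probe sets of the classes from 2, 4 and 8 came out in their own. The simulated levels were drawn away from the class boundaries and with the same spread throughout. These shares therefore do not cover probe sets near a boundary or with a wider spread.

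The members and lists were chosen with earlier results of these data known. Named genes are the members, SINHCAF, up to 3 rising and 3 falling genes of each list by size among those past the threshold, and EPCAM, CDH2, FN1, TWIST1, OVOL2, GRHL1, FGFR2, CD44, PAX8, TG, CDX2, CDH17, PTPRC and PECAM1. Outside this rule, VIL1, LGALS4, FABP1, MUC2, PHGR1, VWF, CD14 and LYZ were named after their values were seen. Other scalings, probe set rules, left-out arrays, array weights, a robust fit and a replicate block were tried.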

Additional observations from a re-analysis of the deposited data

How the results depend on the processing

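The values are centred, with no background measure per probe set, so a difference cannot be bounded by background. The log2 difference of SINHCAF kept its direction and call in all 17 alternatives, as did those of ESRP1 (0.82 to 0.98), ESRP2 (0.30 to 0.35) and OVOL1 (0.33 to 0.53), and so did SNAI1 in 16 (0.29 to 0.39) and ZEB1 in 15 (-1.01 to -0.44). Leaving out 1 array at a time gave 1.22 to 1.27 for SINHCAF, 6 to 7 members past the threshold, 4 to 5 higher and 1 to 2 lower, and 10 to 13 of their probe sets, 5 to 8 higher and 5 to 6 lower. The same fits called 7365 to 7700 of all 18132 genes, 3272 to 3414 higher and 4093 to 4293 lower. Calls over all probe sets were not counted in them. The count of 5 higher probe sets was that without the last array labelled FAM60A shRNA or the second labelled control shRNA. The range between probe sets was then 0.83 to 1.03 for ZEB1 and 0.011 to 0.21 for VIM. Without the lowest level class, which holds 5 of the 7 ZEB1 probe sets, the ZEB1 range was 0.33 and 3 probe sets of the members were lower. Members lower numbered 1, without VIM, after quantile normalization again, after cyclic loess, with the replicate block and with the probe set of largest variance. They numbered 0 without x_at and s_at probe sets, where ZEB1 has none left. In the highest level class alone, an alternative chosen after seeing the data, 5 of the 10 genes were left, 4 members passed and 0 were lower. That fit called 5148 of 7188 genes, 2314 higher and 2834 lower, so 4 of 5 stands beside a large background. Fewer genes of the related lists were left there too, and 6 of them were lower, against 12 in the main fit.

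Values near 0 changed sign. GRHL2 was at 0.0012 after cyclic loess and 0.087 in the highest level class, and ran from -0.065 to 0.011 with 1 array left out. ZEB2 ran from -0.086 to 0.037 in that way. Probe set 11731241_at of GRHL2 was at 0.000765 after quantile normalization again, 0.0016 after cyclic loess and 0.018 with array weights, and ran from -0.11 to 0.077 with 1 array left out, as 11731239_x_at did from -0.010 to 0.065. The cause of these changes was not tested.

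The labels share replicate numbers. Deviations of same-numbered arrays correlated at 0.16, 0.059 and 0.078 across genes, not over 0.1 in every pair, so the numbers were not taken as pairs, although each array correlated best with its own number. With the replicate block, 6 members (5 higher, 1 lower) and 12 of their probe sets passed. VIM (-0.19, adjusted p = 0.065) and OVOL1 probe set 11725479_at lost their calls, and 8170 of all genes passed against 8136.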
